A study of Mus musculus with 2 samples.

Results

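The genes that handle haem and iron were followed in white blood cells sorted on CD45 from the retinal pigment epithelium (RPE) and choroid of mice given sodium iodate (NaIO3), an oxidant that damages the RPE. The set holds 8 listed genes of the 32285 in the deposited count tables: Hmox1, Blvrb, Slc40a1, Fth1, Ftl1, Tfrc, Trf and Slc11a1. They were listed by name for their role in haem and iron handling. The 1 knockout library is labelled KO and IL-17RA CKO, and the 1 flox library, its reference, is labelled flox and IL-17ra fl. Mice of both groups carried the labelled Il17ra alleles and received NaIO3 at 20 mg/kg by intraperitoneal injection, so both libraries come from injured eyes. The labels do not say which cells lost the receptor, which exons were removed, how many animals were pooled or how old they were. With 1 library per group there is no test and no p-value. Every interval below is a 95% interval for counting error only, and differences between animals cannot be told apart from differences between genotypes.

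Haem released from ageing red cells is opened by haem oxygenase, encoded by Hmox1, into iron, carbon monoxide and biliverdin. Biliverdin reductase B (Blvrb) reduces flavins. Freed iron is stored in a shell of heavy (Fth1) and light (Ftl1) ferritin chains or leaves the cell through ferroportin (Slc40a1), the one known cellular iron exporter. Transferrin (Trf) carries iron in plasma, and its receptor (Tfrc) brings it into cells. Slc11a1, also known as NRAMP1, moves divalent metals out of the phagosome of macrophages, monocytes and neutrophils.

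Cells were sorted into 7 gates by raw counts of unique molecular identifiers (UMIs, each standing for 1 captured transcript) of a few genes. Of the kept cells, 3982 in the knockout library and 3420 in the flox library, the classical monocyte gate (F13a1 and Chil3) held 312 and 416, the nonclassical monocyte gate (Cd300e and Adgre4) 523 and 545, and the patrolling gate (Ace and Treml4) 518 and 543. The macrophage gate (C1qa, C1qb and C1qc) held 64 knockout and 61 flox cells, the dendritic gate (Cd209a and Clec10a) 150 and 203, the B gate (Cd79a) 1007 and 632 and the T gate (Cd3d and Cd3e) 1663 and 1378. A cell may lie in several gates: 459 knockout and 472 flox cells were both nonclassical and patrolling, and 52.2% of the classical gate in either library also met one of those gates, so the monocyte gates are not independent of each other. In both libraries 5 of 6 other markers of the classical gate, and all those of the other gates apart from Ccr7 in the dendritic gate, stood at over 2-fold the level of all kept cells, and the markers of the nonclassical gate were highest in the patrolling gate. The libraries held 35944330 knockout and 38623933 flox UMIs and shared 3 kept barcodes. Cells with female transcripts made up 39.3% of knockout and 65.7% of flox cells, and cells with male transcripts 34.6% and 15.7%. Each library thus pools animals of both sexes in unequal parts. A cell counted as female with a Xist UMI and none of Ddx3y, Eif2s3y, Kdm5d and Uty, and as male the other way round. Cells with neither or both were left out of every split by sex. Il17ra itself stood at 123 CPM (UMIs per 1000000 UMIs of the cells) in knockout and 132 CPM in flox cells, but 3′ counts need not cover the deleted part and check nothing about the labels.

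Several of the messages carry an iron-responsive element, a hairpin bound by iron regulatory proteins when the cell is short of iron; bound at the 5′ end it blocks translation, and bound at the 3′ end it protects the message from decay. These sites are shown because they divide the members into messages whose protein is set at translation and one whose level follows iron itself. They were found in GENCODE vM21 transcripts (mm10) by a pattern on the transcribed strand: a bulged C, 5 stem bases, the loop CAGTGN and 5 bases that pair with the stem. Capitals mark the 6 bases of the loop.
Fth1, 5′ UTR, chr19:9982732-9982760, plus strand: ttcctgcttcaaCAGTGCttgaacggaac
Ftl1, 5′ UTR, chr7:45459779-45459807, minus strand: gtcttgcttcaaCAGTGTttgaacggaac
Slc40a1, 5′ UTR, chr1:45925465-45925493, minus strand: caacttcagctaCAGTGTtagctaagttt
Tfrc, 3′ UTR, chr16:32631219-32631247, plus strand: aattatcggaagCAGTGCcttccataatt
Tfrc, 3′ UTR, chr16:32631598-32631626, plus strand: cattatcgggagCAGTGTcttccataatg
Tfrc, 3′ UTR, chr16:32631663-32631691, plus strand: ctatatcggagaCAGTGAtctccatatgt
Tfrc, 3′ UTR, chr16:32631710-32631738, plus strand: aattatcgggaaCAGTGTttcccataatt
Of 21894 protein-coding genes searched, 23 (0.105%) held the pattern in a 5′ UTR and 114 (0.521%) in a 3′ UTR. The transcripts of Hmox1, Blvrb, Trf and Slc11a1 held no match, which says only that these letters are not there. Because the ferritin and ferroportin sites act on translation, the levels below say nothing about how much of those proteins was made.

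The 8 genes fell into distinct patterns over the gates in both libraries. Hmox1 and Slc11a1 were phagocyte genes, Fth1 and Ftl1 were abundant in every gate and highest in macrophages, Tfrc was higher in lymphocytes and dendritic cells than in monocytes, and Slc40a1 was almost silent. Levels were summed UMIs per 1000000 UMIs of the gate; since 3′ counts depend on the message's end, they are compared between gates and libraries and not between genes.

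**Figure D1:**
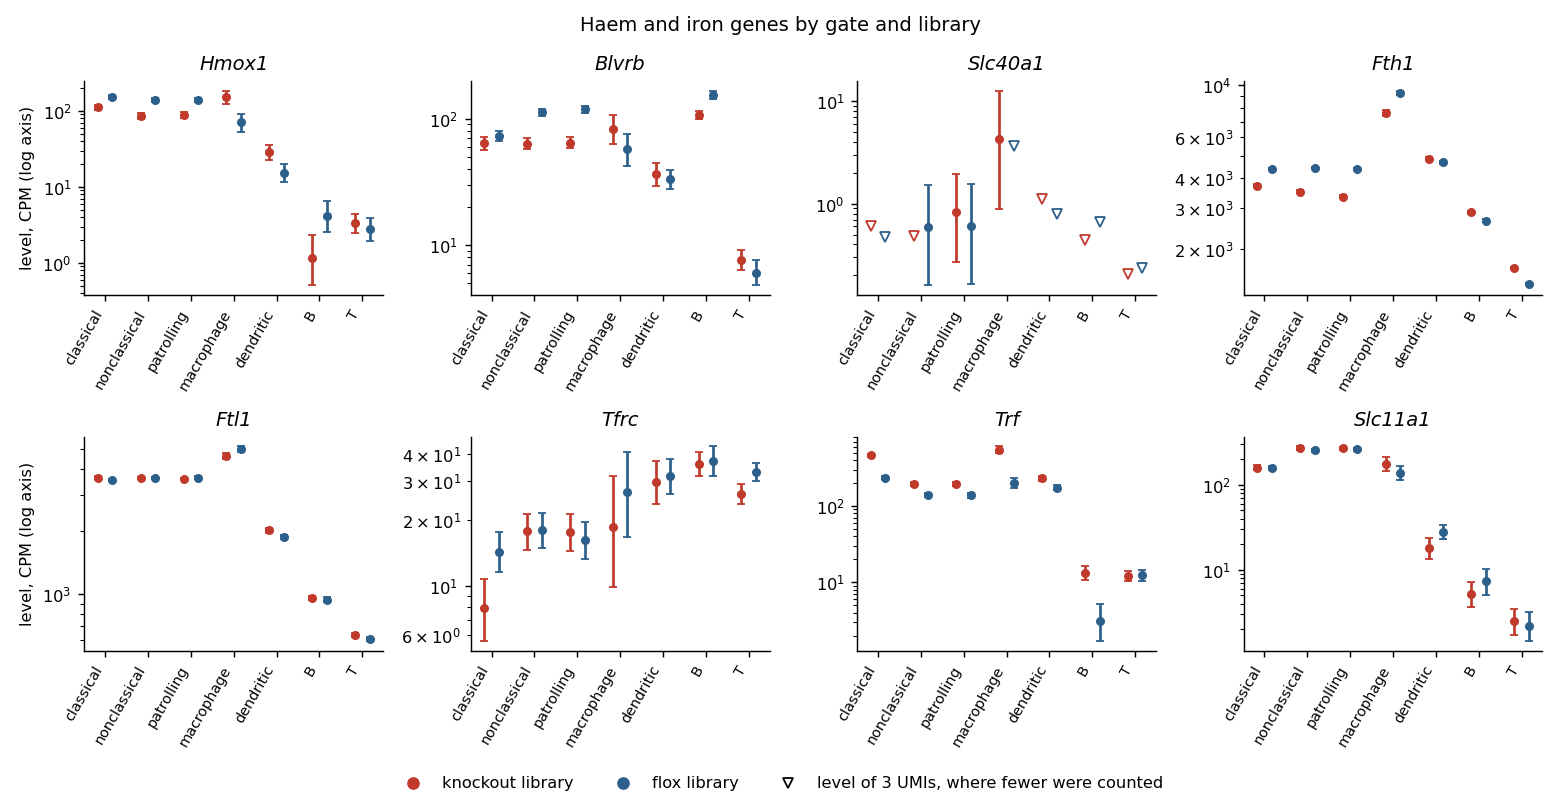
Level in CPM (log axis) of each gene in the 7 gates, knockout (red, left of each pair) and flox (blue), with 95% Poisson intervals; open triangles mark the level of 3 UMIs where fewer were counted. Hmox1 stands between 70.7 and 153 CPM in the monocyte and macrophage gates of both libraries and between 1.17 and 4.21 CPM in the B and T gates.

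Of 56 pairs of a gene and a gate, 47 had at least 50 UMIs in both libraries together. Past 1.5-fold, 6 pairs were lower and 5 higher in the knockout library, and 36 lay within 1.5-fold; over all genes, 4.67% of 62757 such pairs were lower and 4.12% higher. The 6 lower pairs were Hmox1 and Blvrb in the nonclassical and patrolling gates, which share most of their cells, Tfrc in the classical gate and Slc11a1 in the dendritic gate. The 5 higher pairs were Hmox1 in the macrophage and dendritic gates and Trf in the classical, macrophage and B gates. Counted by gate, 2 of 7 genes were lower in the nonclassical gate (all genes: 3.77%) and in the patrolling gate (3.73%) and none was higher (2.78% and 3.0%), 1 of 7 was lower in the classical gate (3.85%) and 1 higher (4.22%), and in the dendritic gate 1 was lower (4.08%) and 1 higher (5.22%). Of 6 genes measured, 2 were higher in the macrophage gate, where 11.7% of all genes were, and none lower (10.8%), and 1 of 6 was higher in the B gate (2.81%) and none lower (5.06%). None of 7 passed in the T gate, against 4.50% of all genes lower and 3.33% higher. Over all kept cells together, 1 of 7 was lower (5.56%) and none higher (3.62%). The median log2 ratio of the members was -0.18 in the classical gate, against 0.04 for all genes, and -0.02 in the nonclassical gate, against 0.02; in the T gate it was 0.17, against 0.02, and in the macrophage gate 0.44, against -0.01.

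**Figure D2:**
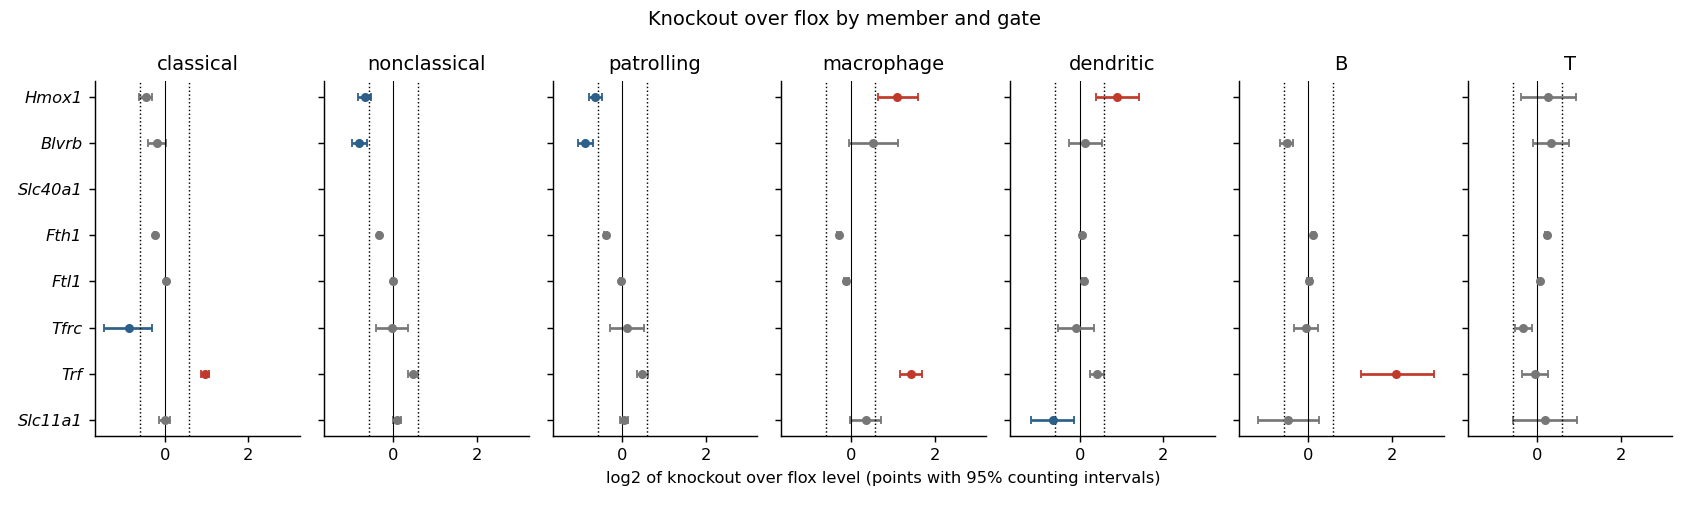
Log2 of the knockout over flox level for each gene (rows) in each gate (panels), with 95% counting intervals; dotted lines mark 1.5-fold, and blue and red points lie past it with a lower or higher knockout level. Points are drawn for the 47 pairs with at least 50 UMIs. The ferritin chains lie between the dotted lines in every panel, with Fth1 left of 0 in the classical, nonclassical, patrolling and macrophage panels. Trf lies past the right line in the classical, macrophage and B panels.

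Hmox1, on chromosome 8 (chr8:75093621-75100589, mm10), was lower in the knockout monocyte gates. It had 111 CPM in knockout and 152 CPM in flox classical cells, a ratio of 0.732 (0.659 to 0.814). In the nonclassical gate it had 86.0 CPM in knockout and 138 CPM in flox cells, a ratio of 0.622 (0.558 to 0.692), and in the patrolling gate 88.8 and 139 CPM, a ratio of 0.640. Cells of the classical gate alone had a ratio of 0.546 (0.4505 to 0.660), and those also in the nonclassical or patrolling gates 0.853 (0.749 to 0.970). Cells of the nonclassical or patrolling gates alone had 0.466 (0.387 to 0.558). The opposite order stood in the macrophage gate, with 153 CPM in knockout and 70.7 CPM in flox cells (ratio 2.16, 1.56 to 3.03), and in the dendritic gate, with 28.7 and 15.4 CPM (ratio 1.86, 1.31 to 2.66). B cells had 8 UMIs in the knockout and 19 in the flox library, and T cells 3.36 and 2.81 CPM.

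The share of cells with a Hmox1 UMI showed no such gap. In the nonclassical gate it was 34.2% in knockout and 34.3% in flox cells, and in the classical gate 48.7% (43.1 to 54.4) and 39.4% (34.7 to 44.3), at median depths of 16122 and 15066.5 UMIs. With every cell thinned to 2000 UMIs, 9.30% of knockout and 8.92% of flox classical cells had one, and 7.71% and 8.47% of nonclassical cells. T cells, which serve as the background from free RNA, had 0.365% and 0.586% after the same thinning.

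Those few cells dominated the sums. Cells with at least 10 Hmox1 UMIs numbered 9 of 3982 in the knockout library and 10 of 3420 in the flox library, and held 45.9% and 63.4% of all Hmox1 UMIs. The highest knockout cell held 208 UMIs and the next 46, whereas 5 flox cells held 101 to 197. In the classical gate 5 knockout cells had 299 of 549 UMIs and 7 flox cells 704 of 974. Without such cells Hmox1 stood at 51.8 CPM in knockout and 42.9 CPM in flox classical cells, at 42.1 and 41.9 CPM in the nonclassical gate (ratio 1.01) and at 75.2 and 70.7 CPM in macrophages (ratio 1.06). These cells were picked by the same counts that are compared, and in the macrophage gate 2 knockout and 0 flox cells were left out, so the values describe where the UMIs lay and test nothing. In the dendritic gate 1 knockout cell held 43 of 78 UMIs, and without the highest cell of each library the ratio was 0.988.

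The Hmox1-high cells also carried much ferritin. In the classical gate the 7 flox cells had 17910 CPM of Fth1 and 9396 CPM of Ftl1, against 4148 and 3444 CPM in the other flox cells. The 5 knockout cells had 7113 CPM of Fth1 and 6419 CPM of Ftl1, against 3649 and 3566 CPM in the other knockout cells. Slc11a1 did not share one order: it stood at 449 CPM in these flox cells (other flox cells 154 CPM) and at 75.1 CPM in these knockout cells (other knockout cells 161 CPM), where it rests on 8 UMIs. By transcripts, 8 of the 10 flox cells were female and 2 male, and of the 9 knockout cells 2 were female, 2 male and 5 showed neither sex alone. The knockout cell of 208 UMIs was one of those 5. Within sex the ratio was 0.406 (0.332 to 0.493) for female and 0.140 (0.114 to 0.172) for male cells of the nonclassical gate. The male flox level came from 338 UMIs in 53 cells, of which at most 2 were Hmox1-high. How many of the 338 UMIs those held was not counted, and the interval leaves out such spread between cells. Neither ratio includes the knockout cell of 208 UMIs.

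**Figure D3:**
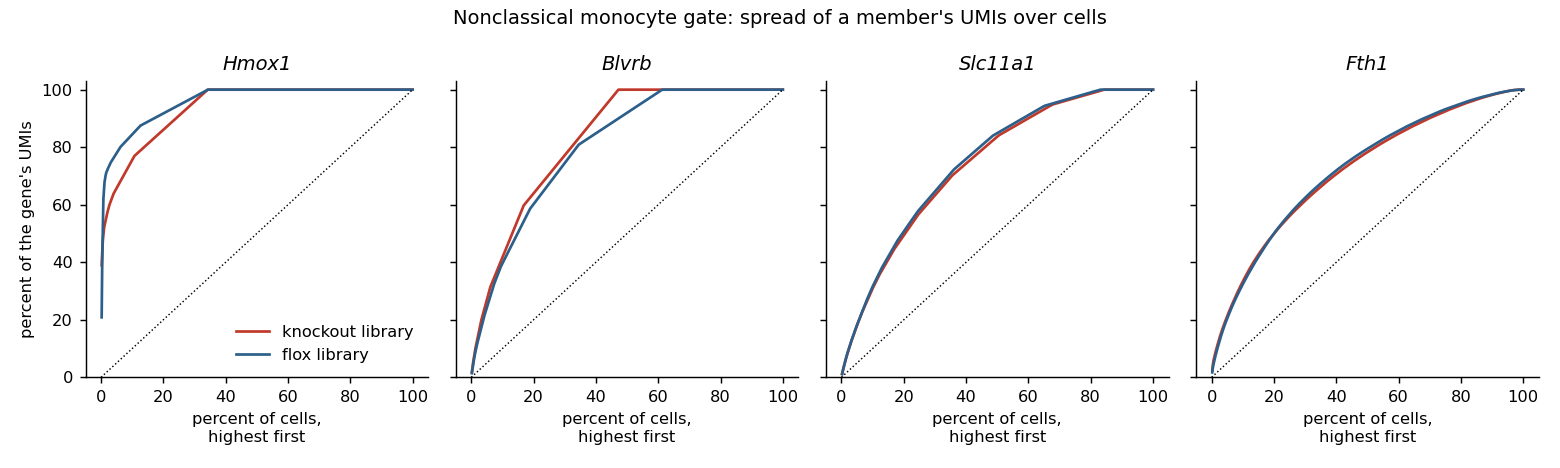
Cumulative share of a gene's UMIs (percent) over the cells of the nonclassical monocyte gate, taken from the highest cell down (percent of cells), knockout in red and flox in blue; the dotted diagonal is an even spread. For Hmox1 the first 10% of cells hold 75.8% of the knockout and 84.6% of the flox UMIs, for Blvrb 42.0% and 39.8%.

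Blvrb (chr7:27447978-27466144) was lower over many knockout cells of the nonclassical and patrolling gates and was not carried by a few. It had 63.6 CPM in knockout and 112 CPM in flox nonclassical cells (ratio 0.569, 0.502 to 0.643), and 64.4 and 118 CPM in the patrolling gate (ratio 0.545, 0.481 to 0.616). A Blvrb UMI was present in 47.2% (42.9 to 51.6) of knockout and 61.3% (57.1 to 65.4) of flox nonclassical cells, and after thinning in 11.6% and 18.4%, against 1.401% and 1.171% of T cells. The order did not extend to the classical gate once shared cells were set aside: cells of the classical gate alone had 64.0 CPM in knockout and 56.3 CPM in flox (ratio 1.14), whereas cells of the nonclassical or patrolling gates alone had 62.5 and 123 CPM (ratio 0.508). Flox levels thus ran lower in classical than in nonclassical cells, while knockout levels were nearly equal in both.

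Split by sex, female nonclassical cells had 65.3 CPM in knockout and 112 CPM in flox (ratio 0.585), and male ones 61.6 and 61.8 CPM (ratio 0.997, 0.714 to 1.41), the flox value from 49 UMIs in 53 cells. In the patrolling gate the ratios were 0.586 (0.494 to 0.693) in female and 0.817 (0.581 to 1.17) in male cells, with overlapping intervals. The difference between the sexes was not tested. Blvrb in B cells stood at 107.5 CPM in knockout and 154 CPM in flox cells (ratio 0.697); 10 flox B cells with 10 or more UMIs, 9 of them female by transcripts, held 26.0% of the flox sum, no knockout B cell reached that number, and the other B cells had 107.5 and 122 CPM (ratio 0.884). T cells had 7.67 CPM in knockout and 6.08 CPM in flox. Macrophages had 82.9 CPM in knockout and 57.3 CPM in flox cells (ratio 1.45, 0.968 to 2.17). In dendritic cells the ratio was 1.10 (0.834 to 1.44).

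Over all cells of each gate the ferritin chains lay within 1.5-fold between libraries, and the heavy chain differed more than the light chain in the monocyte gates. Ftl1 (chr7:45457944-45459884) lay within 0.927 and 1.08 of the flox level in all 7 gates, at 3628 CPM in knockout and 3543 CPM in flox classical monocytes and at 4612 and 4974 CPM in macrophages. Within sex its macrophage ratio was 1.24 (1.14 to 1.35) in female and 1.62 (1.425 to 1.85) in male cells. In dendritic cells it was 1.27 in female and 0.926 in male ones. Fth1 (chr19:9980598-9985098) was lower in the knockout monocyte gates, with 3724 CPM in knockout and 4378 CPM in flox classical cells (ratio 0.851), 3513 and 4442 CPM in nonclassical cells (ratio 0.791, 0.777 to 0.805) and 3332 and 4383 CPM in patrolling cells (ratio 0.760). Macrophages held the highest Fth1 levels, 7598 CPM in knockout and 9266 CPM in flox cells (ratio 0.820). The mean of the CPM of each cell gave 0.634. Among macrophages given a sex the ratio was 1.14 (1.07 to 1.21) in female and 2.13 (1.89 to 2.40) in male cells. These were 21 female and 21 male of 64 knockout cells and 25 and 6 of 61 flox cells. The flox ones held 2786 and 321 of the 7603 flox Fth1 UMIs, so most of the flox sum lay in cells without a sex call. In dendritic, B and T cells the knockout level was the higher one, with ratios of 1.04, 1.09 and 1.17, though in dendritic cells the ratio was 0.754 in female and 1.25 in male cells. None of the Fth1 ratios over all cells of a gate passed 1.5-fold. In male cells alone the patrolling gate did, at 0.617, and so did the macrophage gate.

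The ratio of Fth1 to Ftl1 UMIs, which does not depend on how the libraries are scaled, differed between cell types. It was 1.03 in knockout and 1.24 in flox classical monocytes, 0.973 and 1.23 in nonclassical and 0.930 and 1.21 in patrolling cells. It was higher in macrophages (1.65 and 1.86), in dendritic cells (2.40 and 2.50) and in T cells (2.61 and 2.32), and highest in B cells (2.999 and 2.804). Knockout over flox, the ratio was 0.831 in the classical, 0.791 in the nonclassical and 0.770 in the patrolling gate, and 1.07 and 1.12 in the B and T gates. Within sex these 5 gates kept their order: 0.801 in female and 0.756 in male classical cells, 0.726 and 0.704 in nonclassical cells, 1.06 and 1.14 in B cells and 1.05 and 1.11 in T cells. In dendritic cells the sexes ran opposite ways, with 0.593 in female and 1.35 in male cells, the knockout female gate holding 54 cells, and in macrophages likewise, with 0.916 in female and 1.31 in male cells, where the flox male gate held 6. Without the cells of 10 or more Hmox1 UMIs the knockout over flox ratio was 0.850 in the classical and 0.804 in the nonclassical gate, against 0.831 and 0.791 with them.

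**Figure D4:**
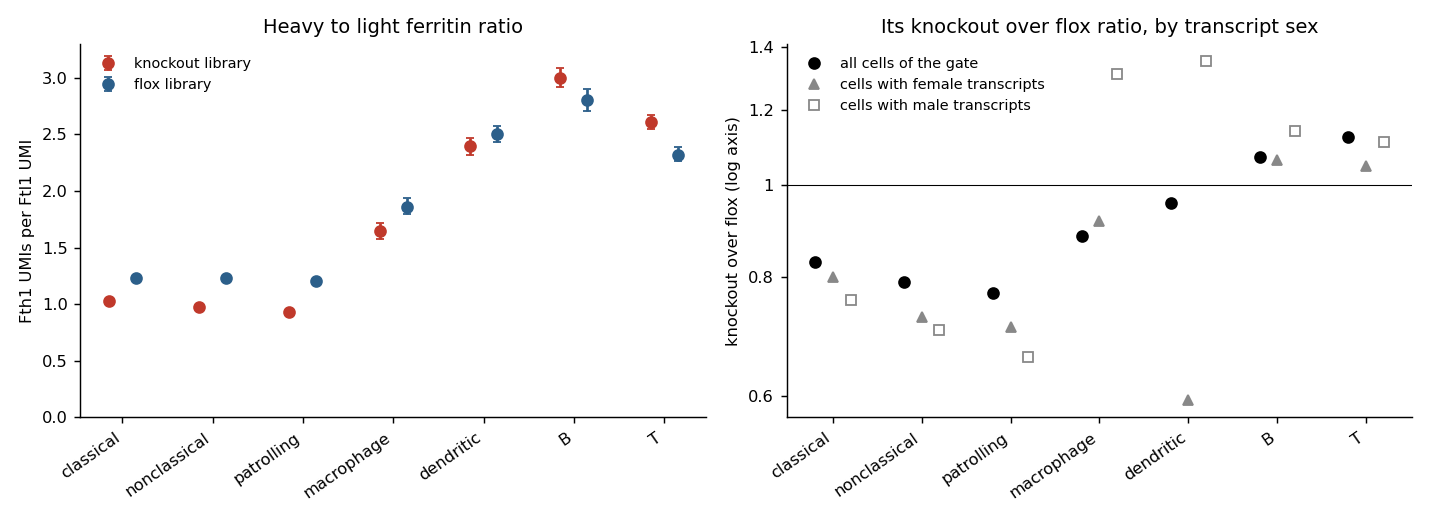
Left, Fth1 UMIs per Ftl1 UMI in each gate, knockout (red, left of each pair) and flox (blue), with 95% intervals. Right, knockout over flox of that ratio (log axis) for all cells of the gate and for cells with female or male transcripts; the 3 monocyte gates lie below 1 and the B and T gates above 1 in all cells and in both sexes.

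In single cells the chains ran together most in the macrophage gate. Of its cells, 23.4% of knockout and 24.6% of flox ones also met the classical gate, and 20.3% and 26.2% the nonclassical gate. It also had the highest Fth1 level, so more Fth1 UMIs were left in its cells after thinning. What part these had in the correlation was not tested. After thinning to 2000 UMIs, Spearman's rho of Fth1 and Ftl1 was 0.434 over 61 knockout and 0.438 over 55 flox macrophages, against 0.179 over 519 knockout and 0.195 over 543 flox nonclassical monocytes; cells of 1 library share its handling, and these values are descriptions. Ftl1-ps1, a near copy of Ftl1 whose reads may be split between them, had 12.23 CPM in knockout and 13.03 CPM in flox cells, against 1561 and 1727 CPM for Ftl1. Free RNA, as seen in the flox barcodes with 100 UMIs or fewer, held Fth1 at 4094 CPM, close to its level in monocytes.

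Ferroportin was nearly absent. Slc40a1 (chr1:45908068-45926523) had 21 UMIs in 8 knockout cells and 11 UMIs in 7 flox cells, and 19 and 11 of them lay in cells with 3 or more UMIs of neutrophil markers. The macrophage gate held 3 UMIs in the knockout and 0 in the flox library, where 0 of 61 cells, taking 3 cells as the floor, allows a share of up to 4.92% with a UMI. No UMI was found in the dendritic, B and T gates of either library. At this depth a difference between the libraries was not detectable.

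Tfrc (chr16:32608920-32632794) had its highest levels in B cells, 35.9 CPM in knockout and 37.2 CPM in flox cells, followed by dendritic cells (29.8 and 31.6 CPM) and T cells (26.2 and 33.1 CPM). Knockout classical monocytes had 7.91 CPM, from 39 UMIs, and flox ones 14.4 CPM, from 92 UMIs, a ratio of 0.551 (0.369 to 0.809). The share of classical cells with a UMI was 8.65% (5.78 to 12.3) in knockout and 15.1% (11.8 to 19.0) in flox, but 2.24% and 2.65% after thinning. The ratio was 0.399 in female cells, from 13 and 65 UMIs, and 0.644 in male cells, from 15 and 17. In the nonclassical gate the levels were 17.72 CPM in knockout and 18.01 CPM in flox cells, and no other measured gate passed 1.5-fold.

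Trf (chr9:103204001-103230444), which the liver secretes and the RPE also makes, was higher in several knockout gates. Classical monocytes had 461 CPM in knockout and 236.5 CPM in flox cells (ratio 1.95, 1.83 to 2.08). The ratio was 1.05 (0.951 to 1.17) in female and 2.52 (2.20 to 2.90) in male cells, and 1.37 with gates set after thinning. Over all kept cells it was 0.962 in female and 1.76 in male cells. Markers of the RPE moved with it: the summed level of 6 RPE genes in that gate was 594 CPM in the knockout library, with none at 0, and 1.56 CPM in the flox library, with 4 at 0. A pair of knockout cells with 3 or more RPE marker UMIs held 781 of the 2275 Trf UMIs, and no flox cell of the gate had so many. Without them Trf stood at 305 CPM in knockout and 236.5 CPM in flox classical cells, a ratio of 1.29. Among cells of no gate, 8 knockout and 5 flox cells with RPE markers held 67.5% and 61.6% of the Trf UMIs.

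The macrophage gate held 549 CPM of Trf in knockout and 202 CPM in flox cells (ratio 2.71, 2.26 to 3.28), with RPE markers at 0 UMIs in the knockout and 1 UMI in the flox gate. A Trf UMI was present in 81.3% (69.5 to 89.9) of knockout and 55.7% (42.5 to 68.5) of flox macrophages, and after thinning in 49.2% and 27.3%, against 1.46% and 1.54% of T cells. The ratio was 1.63 in female cells and 6.88 in male cells, the male flox gate holding 6 cells with 11 UMIs. Macrophage markers differed within the same gate: the summed level of 9 of them was 12400 CPM in knockout and 4673 CPM in flox cells, with none at 0 in either, and all but Csf1r and Adgre1 were past 1.5-fold higher. Apoe stood at 10190 CPM in knockout and 3410 CPM in flox cells and Mrc1 at 317 and 89.0 CPM. Their part in the Trf and Hmox1 differences of this gate was not tested. B cells had 90 UMIs in knockout and 14 in flox (ratio 4.24); knockout cells with RPE markers held 25 of them, and without such cells the ratio was 3.07. Of these 104 UMIs, 36 lay in cells that met the gates of 1 lineage only, too few for a call, and the ratio ran from 1.77 to 11.6 over the settings tried. In T cells the level was 11.99 CPM in knockout and 12.4 CPM in flox.

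**Figure D5:**
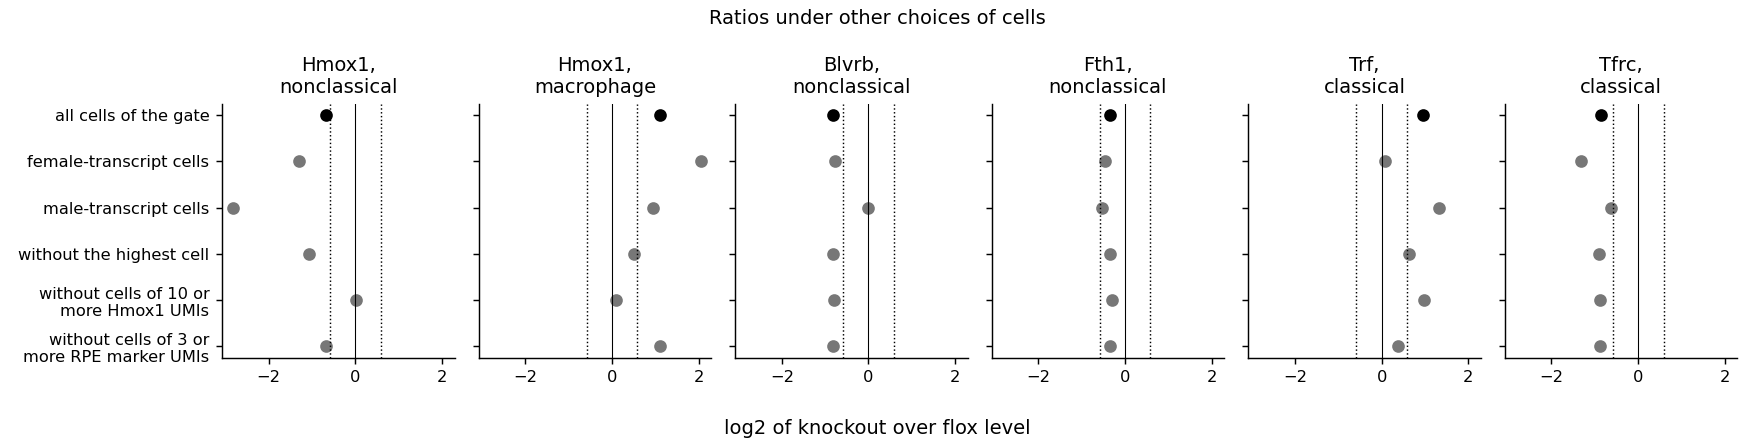
Log2 of the knockout over flox level of 6 gene and gate pairs (panels) for all cells of the gate (black) and for 5 other choices of cells (grey), with dotted lines at 1.5-fold. Hmox1 in the nonclassical gate lies at -0.69 for all cells and at 0.01 without cells of 10 or more Hmox1 UMIs, Trf in the classical gate at 0.96 for all cells and at 0.37 without cells bearing RPE markers, and Fth1 stays between -0.52 and -0.29.

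Slc11a1 (chr1:74375195-74386062) was near even between libraries in the monocyte gates over all cells. It had 271 CPM in knockout and 255 CPM in flox nonclassical cells (ratio 1.06, 0.993 to 1.14), 269 and 261 CPM in patrolling cells and 159 CPM in classical cells of either library. Macrophages had 177 CPM in knockout and 139 CPM in flox cells, with overlapping intervals. The dendritic gate passed 1.5-fold, with 18.04 CPM from 49 knockout UMIs and 28.2 CPM from 106 flox UMIs (ratio 0.640, 0.447 to 0.906). There the ratio was 1.09 (0.660 to 1.73) in female and 0.373 (0.197 to 0.692) in male cells, the female interval spanning 1. In the classical gate the sexes ran opposite ways, with 0.808 (0.703 to 0.926) in female and 1.45 (1.21 to 1.74) in male cells. In macrophages the ratio was 0.677 (0.428 to 1.04) in female cells, which also spans 1. It was 4.001 (1.73 to 11.3) in male macrophages, from 6 flox UMIs. B and T cells stayed between 2.18 and 7.30 CPM.

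Of 55 further genes of iron and haem metabolism, 44 had at least 50 UMIs over all kept cells, and 4 were lower and 1 higher in the knockout library past 1.5-fold, where 5.56% of all genes were lower and 3.62% higher. Their median log2 ratio was -0.05, against 0.04 for all genes. Cp, the plasma ferroxidase ceruloplasmin, had 3.85 CPM in knockout and 5.96 CPM in flox cells; in nonclassical monocytes the levels were 5.80 and 21.4 CPM. Lcn2, which binds bacterial iron carriers, had 1.45 CPM in knockout and 3.42 CPM in flox cells, and neutrophil markers stood at 204 and 411 CPM in the same cells. Alas2, the erythroid enzyme that opens haem synthesis, had 18 UMIs in knockout and 61 in flox cells, and 3 flox cells rich in haemoglobin messages held 50 of those 61. Spic, a transcription factor of iron-recycling macrophages, had 1.12 CPM in knockout and 2.54 CPM in flox cells. Cd163, the scavenger receptor for haemoglobin bound to haptoglobin, was the higher one, with 2.99 CPM in knockout and 1.57 CPM in flox cells. In macrophages Cd163 had 46 UMIs in knockout and 4 in flox cells.

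In classical monocytes 38 of the 55 genes were measured, none was lower and 1, Cd163, was higher, at 10.1 CPM in knockout and 3.43 CPM in flox cells; over all genes of that gate 3.85% were lower and 4.22% higher, so counts this small lie near the background. The genes of iron sensing (3 of 3 measured), of mitochondrial iron and iron-sulphur clusters (7 of 7) and of haem synthesis (7 of 9) all lay within 1.5-fold there. Ireb2, an iron regulatory protein that binds the hairpins shown above, had 29.8 CPM in knockout and 28.7 CPM in flox classical cells, and Ncoa4, which delivers ferritin to lysosomes, had 25.8 CPM in both.

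Over the 14 profiles of 7 gates in both libraries, on the log2 scale of CPM with 10 added, the gene most like Slc11a1 was Pla2g7 (Pearson r = 0.997), followed by Sat1 and Mafg, and the gene most like Hmox1 was Selenbp1 (0.981), followed by Abcd2 and Mafg. Ftl1 was most like Tfe3 (0.994), Gm35154 and Iqsec2, and Trf most like Plscr3 (0.991), Abca9 and Adam15. Fth1 was most like Scamp2 (0.966), Epb41l2 and Vav1, Tfrc most like Hint3 (0.959), with Phkb also near it, and Blvrb most like Arhgap17 (0.943), Sypl and March1. Among the members, Hmox1 and Slc11a1 had r = 0.960, Hmox1 and Ftl1 0.942 and Hmox1 and Tfrc -0.836. These describe likeness over gates that share cells and libraries, among 9510 genes with at least 500 UMIs; Slc40a1 had too few UMIs to be placed.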

How the data were processed

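The authors deposited counts of UMIs per gene and barcode for each library, counted with Cell Ranger on mm10 per the submitters' processing notes; per the file headers, the knockout matrix was written by version 7.0.1 and the flox matrix by version 4. Genotype and counting software therefore cannot be told apart. Scaling by genes of like genomic span was tried because versions may count intronic reads differently. It moved 11 of 54 ratios beyond their counting intervals and turned round none of those past 1.5-fold. Barcodes with at least 1000 UMIs and less than 10% mitochondrial UMIs were kept in both. A cell entered the classical monocyte and macrophage gates at 3 or more UMIs of their genes together and the other gates at 2 or more. UMIs were summed per gate and given as CPM with exact Poisson intervals. Ratios have conditional exact binomial intervals and shares Clopper-Pearson intervals. A pair was called by size, at 1.5-fold with at least 50 UMIs. Shares were also taken after thinning each cell to 2000 UMIs, which left out 124 of 3982 knockout and 71 of 3420 flox cells. Doublets were not removed; an alternative removed those called by Scrublet, 55 knockout and 19 flox cells. All 8 members were counted in every gate, though not every value is printed. Further iron and haem genes are named where at least 50 UMIs and 1.5-fold were met in all kept cells or in classical monocytes, with Ireb2 and Ncoa4 chosen after their values were seen, and for each member the 3 genes of most similar pattern, of which 1 is not reported here. The members, gates and lists were chosen with earlier results of these data known. Python 3.11.15, numpy 2.4.6, scipy 1.17.1, pandas 2.3.3 and scanpy 1.11.5 were used. The ratio and its interval were tested on Poisson counts simulated from the sums of the classical gate. Such counts hold no spread between cells, so that test says nothing about genes whose UMIs lie in few cells. Thinning was checked on the flox cells for the total left per cell.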

Additional observations from a re-analysis of the deposited data

Results flagged for a closer look

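Hmox1 was past 1.5-fold in opposite directions in different gates of the same comparison, and the difference between gates was not tested. Its knockout over flox ratio was 0.622 in the nonclassical monocyte gate and 0.640 in the patrolling gate, against 2.16 in the macrophage gate and 1.86 in the dendritic gate. Without the cells of 10 or more Hmox1 UMIs the 4 ratios were 1.01, 1.06, 1.06 and 0.840.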

How the results depend on the processing

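No paired analysis was possible because each group has 1 library. Of the other settings, up to 18 for each ratio, the UMI minima of 500 and 2000 and the mitochondrial maxima of 5% and 20% left all 54 ratios within their own counting intervals. Over all settings and ratios, 777 values stayed within the interval of the ratio as reported, 186 moved beyond it and 8 turned a called ratio round. Most ratios moved within sex. Of 54, 33 moved and 2 called ones turned round in female cells, and 37 moved and 1 called one turned round in male cells. Only ratios past 1.5-fold as reported could count as turned round, so a change of direction in the others is not in these numbers. Of the 78 knockout Hmox1 UMIs of the dendritic gate, 5 lay in female and 22 in male cells, and the others in cells without a sex call. The log2 ratio of Hmox1 in dendritic cells, 0.90 as reported, was -0.60 in female cells, -0.65 in male cells, -0.017 without the highest cell and -0.25 without cells of 10 or more Hmox1 UMIs. That last setting, chosen after the data were seen, also gave a log2 ratio of 0.0081 for Hmox1 in the nonclassical and 0.088 in the patrolling gate. With gates set after thinning the Hmox1 ratio was 0.294 in the nonclassical and 0.286 in the patrolling gate, and with the gate minimum raised by 2 UMIs the nonclassical ratio was 0.825, no longer past 1.5-fold. The log2 ratio of Slc11a1 in dendritic cells, -0.64 as reported, was 0.12 in female cells and 0.73 with gates set after thinning, from 27 UMIs. The cause was not tested. Of the pairs past 1.5-fold, 6 lower and 5 higher as reported, at 2-fold 0 were lower and 3 higher; 3 were higher without the highest cell and 3 without cells of 10 or more Hmox1 UMIs. The further iron and haem genes higher in all kept cells numbered 3, not 1, at a minimum of 20 UMIs. Tfrc in the classical gate and Trf in the macrophage gate stayed past 1.5-fold in all 18 settings, and Blvrb in the nonclassical gate in 17, male cells being the exception. These settings were counted whatever their UMIs. Male classical cells had 15 knockout and 17 flox Tfrc UMIs (interval 0.300 to 1.37), and male flox macrophages 11 Trf UMIs. After thinning, 2.24% of knockout and 2.65% of flox classical cells had a Tfrc UMI. Leaving out cells with RPE markers and the split of overlapping monocyte gates were also chosen after the data were seen. The macrophage gate, with 64 and 61 cells, limits every value drawn from it.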
